A study of Mus musculus with 58 samples.

Results

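The 8 SP-A2(1A0) lavage libraries taken 24 h after K. pneumoniae differed in how much neutrophil transcript they held, and they are compared here by that content. Each library was scored by the mean of log2 (normalized count + 1) of S100a8 and S100a9, the subunits of calprotectin, which makes up much of the neutrophil cytosol. The 4 libraries with the highest score form the neutrophil-rich arm and the 4 with the lowest score form the neutrophil-poor arm. They are 8 of the 10 libraries of the 24 h table, in a series of 58 samples. The other two, JFRm58 and JFRm74, are not among the libraries the rule takes, and their labels are in doubt. JFRm74 is titled as a 6 h SP-A knockout female but described as part of the 24 h 1A0 table, and JFRm58 is titled as a 1A0 female but held 52.5 normalized counts of Ddx3y, a Y-linked gene, and 9.73 of Xist. The arms were thus chosen by a readout of the same libraries. S100a8 and S100a9 were left out of the tests, and a p-value between the arms orders genes and is not independent evidence.

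All 8 mice were 12 weeks old, on the C57BL/6J background, lacked mouse SP-A and carried the human SP-A2 variant 1A0, and each gave 1 library. Humanized transgenic (hTG) mice of this line express a single variant of SP-A2, a human gene of surfactant protein A (SP-A), which coats microbes in the alveolus and acts on alveolar macrophages (AMs). The study compared males with females after infection in this line, in lines with other SP-A variants and in SP-A knockout mice. It also compared the variants and the knockout with each other. The alveolar cells were pelleted from bronchoalveolar lavage without a sort, and the labels call them AMs. Uninfected mice were not analysed here, and the sources used here do not name the promoter of the transgene.

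AMs live in the airspace, clear surfactant and take up bacteria. In bacterial pneumonia they release cytokines and chemokines, and neutrophils leave the blood and enter the airspace through chemokine receptors such as CXCR2. Neutrophils carry ready-made granule proteins (lipocalin 2, metalloproteinases) and short-lived transcripts for IL-1β, its decoy receptor and S100 proteins, so a lavage pellet after infection mixes the RNA of both cell types. In such bulk RNA, fewer cells of a type and less RNA per cell cannot be told apart.

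S100a8 measured 10631, 4881, 4286 and 4475 normalized counts in the neutrophil-rich libraries JFRm71, JFRm67, JFRm70 and JFRm60. In the neutrophil-poor libraries JFRm59, JFRm78, JFRm77 and JFRm76 it measured 1247, 1457, 886 and 482. Below, values are given in this same order of falling score. S100a9 measured 6577, 2476, 2606 and 2404 in the first arm and 1239, 986, 335 and 285 in the second. Both genes lie on chromosome 3 of GRCm38, S100a8 at 90668978 to 90670035 and S100a9 at 90692632 to 90695721. The score ran from 13.03 in JFRm71 down to 8.54 in JFRm76. At the border, JFRm60 at 11.68 was the lowest neutrophil-rich library and JFRm59 at 10.28 the highest neutrophil-poor one. The lowest library, JFRm76, held 482 normalized counts of S100a8.

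**Figure D1:**
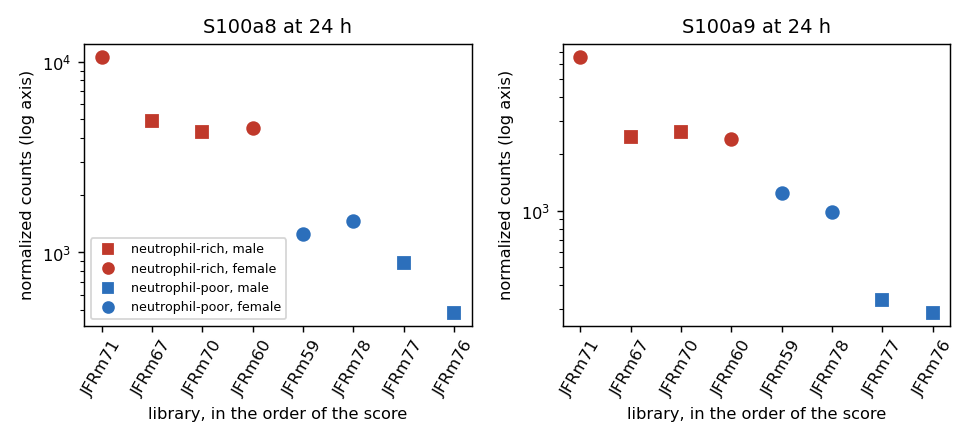
S100a8 (left) and S100a9 (right) in normalized counts on a log axis for the 8 libraries in the order of the score, red for neutrophil-rich, blue for neutrophil-poor, squares for males and circles for females. The 4 red points lie between 4286 and 10631 for S100a8 and the 4 blue points between 482 and 1457, which is how the arms were chosen.

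Each arm held 2 males and 2 females. The recovered reads per library ran from 381629 to 698984 in the neutrophil-rich arm (median 573833) and from 393495 to 762007 in the neutrophil-poor arm (median 576472). Counting error therefore limits the precision of genes with a mean near the minimum of 10 normalized counts that a gene needed to be tested. The lavage label was examined through 10 AM markers and 11 neutrophil markers. All 10 AM markers, among them Marco, Chil3, Car4 and Pparg, were detected in all 8 libraries, and 8 of 10 had a lower mean in the neutrophil-rich arm. Of the 11 neutrophil markers 2 are the genes of the score, whose higher mean the choice of arms fixed. The other 9 also had a higher mean in that arm, and 8 of them were detected in all 8 libraries. Ly6g, a surface protein of mature mouse neutrophils, was the marker not detected in every library. Its values were 42.4, 4.34, 15.2 and 21.1 in the neutrophil-rich libraries and 23.4, 1.39, 5.64 and 0 in the neutrophil-poor ones.

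Of the 6107 genes that averaged 10 or more normalized counts, 241 were called higher in the neutrophil-rich arm and 95 lower (limma, Benjamini-Hochberg adjusted p under 0.05), which is 3.95% and 1.56% of the genes tested. At an unadjusted p under 0.05 the counts were 837 higher (13.7%) and 585 lower (9.58%). Genes whose libraries did not overlap between the arms numbered 462 higher (7.57%) and 332 lower (5.44%). The median log2 fold change (neutrophil-rich minus neutrophil-poor, on log2 of normalized count + 1) was 2.24 for the genes called higher and −1.60 for those called lower, and close to 0 (−0.0029) over all genes tested. All of the 241 but 1 differed by a ratio of means of at least 2, as did all 95.

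The size of the called set depended on the tool and on single mice. The edgeR quasi-likelihood test on the recovered reads called 142 genes higher and 36 lower, and 170 of its 178 calls were among the 336 of limma. With the libraries scaled to equal totals, limma called 187 higher and 134 lower, so the share of calls on the higher side went from 71.7% to 58.3%, and the median of all genes moved to −0.10. Leaving out JFRm67, JFRm70, JFRm77, JFRm76 or JFRm71 left 106, 113, 117, 133 and 136 calls, without JFRm59 or JFRm60 there were 667 and 550, and without JFRm78 there were 246. All 336 genes kept their direction in each of these fits in which they were tested. Of the 57 named genes that limma called, 18 kept their call under all 18 alternatives in which they were tested: Adora2a, Bcl2a1b, Calr, Cd200r4, Cd63, Cdk5r1, Cxcr2, Egln3, Emc2, Hp, Ifitm3, Il1r2, Leprot, Mrc1, Ncf4, Rnd1, Srebf2 and Traf1.

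The granule genes of neutrophils stood higher in the neutrophil-rich arm as far as they were measurable. Of 16 listed genes 7 were tested, and 4 of them rose, none fell, with a median log2 fold change of 1.44 beside −0.0029 over all genes. Over all genes tested 3.95% rose and 1.56% fell, and the list counts here and below are to be read beside these shares. Another 6 members, the precursor-stage granule genes Mpo, Elane, Prtn3, Ctsg, Camp and Fcnb, were listed at 0 in all 8 libraries. A listed 0 cannot be read as an absent transcript in these tables, here or below, since mt-Co2, mt-Co3 and mt-Atp6, which every cell uses, were at 0 too and Gapdh averaged 1.35 normalized counts. Lcn2 (ENSMUSG00000026822, chromosome 2, 32384633 to 32388252, minus strand), which encodes the siderophore-binding lipocalin 2, measured 1376, 1289, 1601 and 625 in the neutrophil-rich libraries and 986, 52.9, 106 and 31.9 in the neutrophil-poor ones. JFRm59 lay inside the neutrophil-rich range for Lcn2, and the other three neutrophil-poor libraries lay far below it (log2 fold change 3.30, SE 0.73, adjusted p = 0.0172). Hp, the haemoglobin-binding haptoglobin, which neutrophils also store in granules, measured 832, 903, 1016 and 307 against 273, 147, 76.7 and 39.1 and did not overlap between the arms (2.71, SE 0.50, adjusted p = 0.00847). Mmp9, gelatinase B, measured 110.5, 85.7, 120.3 and 205 against 45.9, 74.4, 39.5 and 30.4, with JFRm60 the highest and a small gap between the arms (1.44, SE 0.38, adjusted p = 0.0372). Chil1 rose by 2.31 (SE 0.55, adjusted p = 0.0239), and JFRm59 at 75.4 normalized counts overlapped the neutrophil-rich arm. Mmp8, the neutrophil collagenase, did not pass, at 1.28 (SE 0.59, adjusted p = 0.204). By edgeR 1 of these 7 genes, Hp, was called and by DESeq2 3, and leaving out 1 library at a time gave 1 to 5 calls.

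Receptors and cytosolic proteins of mature neutrophils showed the same direction in every member tested. Of 31 listed genes 24 were tested, all 24 had a positive log2 fold change, and 13 rose, with a median of 2.00. Cxcr2 (ENSMUSG00000026180, chromosome 1, 74153989 to 74161246, plus strand), the receptor for CXCL1 and CXCL2, measured 295, 219, 177 and 133 in the neutrophil-rich arm and 68.5, 46.6, 25.9 and 31.9 in the neutrophil-poor arm. The arms did not overlap and the ratio of means was 4.77 (log2 fold change 2.26, SE 0.37, adjusted p = 0.00462). Il1r2 (ENSMUSG00000026073, chromosome 1, 40074079 to 40125231, plus strand), the decoy receptor that binds IL-1β without signalling, measured 493, 442, 602 and 411 against 205, 113, 22.5 and 57.96 (2.68, SE 0.49, adjusted p = 0.00804). An antisense transcript, Gm16894, overlaps Il1r2, and the sources used here do not give the strand setting of the counting. G0s2, an inhibitor of triglyceride lipase that neutrophils express strongly, measured 239, 187, 99 and 105 against 67.6, 33.4, 3.38 and 1.45, with the lowest values in both neutrophil-poor males (3.55, SE 0.81, adjusted p = 0.0202). Ptafr, the receptor for platelet-activating factor, measured 369, 356, 499.6 and 189 against 218, 22.3, 43.96 and 27.5, and JFRm59 lay above JFRm60 (2.73, SE 0.55, adjusted p = 0.0118). Gm5483, a gene of the stefin A family whose members are near copies of each other and may share reads, rose by 3.18 (adjusted p = 0.0456).

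Retnlg and Csf3r did not pass. Retnlg, a resistin-like gene of neutrophils, measured 193, 72.7, 107 and 109 against 82.3, 34.1, 1.13 and 11.6, and its log2 fold change of 2.77 (SE 0.80) had an adjusted p = 0.0531. Csf3r, the G-CSF receptor, measured 83.95, 36.9, 31.99 and 39.2 against 78, 25.7, 15.8 and 11.6 (0.81, SE 0.55, adjusted p = 0.395). For both genes JFRm59 lay within the neutrophil-rich range. By edgeR 5 of the 24 genes were called and by DESeq2 12, each of them higher, and leaving out 1 library at a time gave 6 (without JFRm76 or JFRm77) to 18 (without JFRm59).

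Among 18 tested cytokines and chemokines of 28 listed, 5 rose and 1 fell, with a median log2 fold change of 1.76. Il1b (ENSMUSG00000027398, chromosome 2, 129364570 to 129371139, minus strand), the main cytokine product of activated neutrophils and macrophages, measured 2271, 1679.9, 1864 and 1226 in the neutrophil-rich arm and 984, 459.8, 152 and 178 in the neutrophil-poor arm. The arms did not overlap, JFRm59 was again the highest neutrophil-poor library, and the ratio of means was 3.97 (log2 fold change 2.36, SE 0.47, adjusted p = 0.0109). Il1rn, the IL-1 receptor antagonist, measured 2048, 1595, 1747 and 1854 against 1505, 355, 192 and 304 (2.10, SE 0.46, adjusted p = 0.0172). Ccl3, a chemokine for monocytes and neutrophils, measured 500.2, 351, 331 and 278 against 235, 39.7, 34.9 and 7.24 (3.12, SE 0.67, adjusted p = 0.0151). Ccl5 rose too, from a lower level, with a log2 fold change of 2.60 (adjusted p = 0.0115). Cxcl10, an interferon-induced T-cell chemokine, had the largest log2 fold change of the named genes. It measured 162, 242, 77.7 and 132 in the neutrophil-rich arm and 123, 0.696, 0 and 5.80 in the neutrophil-poor arm, where JFRm59 alone stood at the neutrophil-rich level and the other three held almost none (4.54, SE 1.05, adjusted p = 0.0216).

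Cxcl2, the chemokine that binds CXCR2, did not follow the score in the same way. It measured 2647, 1583, 1060.1 and 1202 against 2395, 449, 136 and 203, with JFRm59 second only to JFRm71, and its log2 fold change of 1.87 (SE 0.64) did not pass (adjusted p = 0.0899). Tnf and Ccl4 had the same shape, with JFRm59 the highest of all 8 libraries at 177 and 2044 normalized counts, and neither passed (adjusted p = 0.0916 and 0.101). Il18 was the cytokine that fell. It measured 449.8, 370.0, 439 and 297 in the neutrophil-rich libraries and 676, 1065, 1724 and 1165 in the neutrophil-poor ones, and the arms did not overlap (−1.51, SE 0.30, adjusted p = 0.0115). Ccl6, the most abundant chemokine in these lavages, stood at 6519, 5659, 6379 and 7589 against 3445, 5871, 9664 and 7878 and showed no shift beyond its spread (0.05, SE 0.35). By edgeR Ccl5 was called higher and Il18 lower, and nothing else of the 18. Without JFRm59 limma called 9 of them higher, and without JFRm71 or JFRm77 2. Il1rn, Tnf, Ccl4, Il18 and Ccl6 were chosen for description after their values were seen.

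Genes that NF-κB signalling switches on, among them its own inhibitors, had a positive log2 fold change in all 31 members tested of 33 listed. Of these 12 rose by limma, with a median of 1.82, and the number moved from 3 to 24 with 1 library left out at a time (24 without JFRm59, 3 without JFRm67, JFRm71, JFRm76 or JFRm77), and was 1 by edgeR (Traf1) and 6 by DESeq2. Cd14 (ENSMUSG00000051439, chromosome 18, 36725067 to 36726798, minus strand), the co-receptor for lipopolysaccharide, measured 268, 152, 77.7 and 156 against 72.8, 32, 2.25 and 5.80 (3.30, SE 0.75, adjusted p = 0.0196). Traf1, an adaptor of TNF receptors, measured 60.98, 82.5, 111 and 49.3 against 30.3, 5.56, 2.25 and 7.24 without overlap (3.09, SE 0.61, adjusted p = 0.0109). Gadd45b, a stress-response gene, measured 467, 477, 621 and 317 against 323, 40.3, 24.8 and 17.4, so that JFRm59 lay above the lowest neutrophil-rich library (3.19, SE 0.64, adjusted p = 0.0113). Ccrl2, a chemerin-binding receptor of activated phagocytes, measured 357, 246, 256 and 281 against 258, 47.3, 22.5 and 1.45 with the same overlap (3.28, SE 0.91, adjusted p = 0.0456). Nfkbia, which encodes the NF-κB inhibitor IκBα, was outside the naming rule and was picked after its values were seen: it measured 3712, 3451, 2650.2 and 2289 against 2897, 584, 177 and 238 (2.52, SE 0.61, adjusted p = 0.0284).

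**Figure D2:**
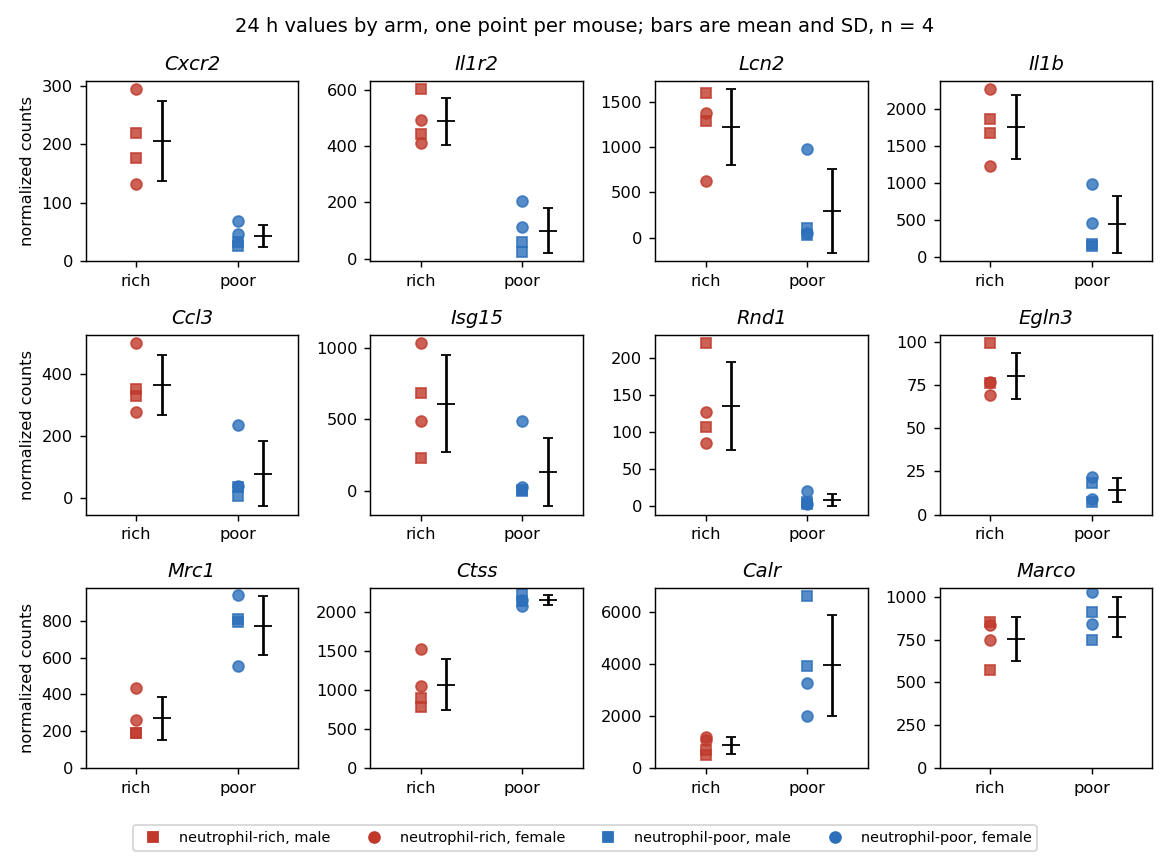
Normalized counts of 12 genes in the 8 libraries by arm, on linear axes, 1 point per mouse (squares males, circles females), with the mean and SD of 4 beside the points. Cxcr2, Il1r2, Rnd1 and Egln3 separate the arms, 1 neutrophil-poor female (JFRm59) reaches the red points for Lcn2 and Isg15, Mrc1, Ctss and Calr are lower in the neutrophil-rich arm, and Marco overlaps.

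Interferon-stimulated genes stood higher in the neutrophil-rich arm in 25 of 27 members tested of 38 listed, with a median log2 fold change of 1.70, and 4 rose. Isg15 (ENSMUSG00000035692, chromosome 4, 156199424 to 156200818, minus strand), a ubiquitin-like modifier, measured 1034, 686, 233 and 486 in the neutrophil-rich arm and 492, 27.8, 5.64 and 11.6 in the neutrophil-poor arm. JFRm59 exceeded both JFRm60 and JFRm70, and the remaining neutrophil-poor libraries held 27.8 or less (4.01, SE 0.93, adjusted p = 0.0208). Rsad2, the antiviral enzyme viperin, measured 736, 455, 373 and 619 against 795, 56.3, 23.7 and 17.4, and here JFRm59 was the highest of all 8 libraries (2.97, SE 0.81, adjusted p = 0.0443). Ifitm3, a membrane protein that blocks virus entry, measured 353, 315, 177 and 266 against 98.8, 18.1, 33.8 and 18.8 without overlap (2.99, SE 0.46, adjusted p = 0.0031). Irf7, the transcription factor that amplifies type I interferon, was low at 19.4, 33.6, 16.8 and 58.3 against 8.67, 2.09, 2.25 and 0 (3.23, SE 0.84, adjusted p = 0.037). By edgeR 1 of the 27, Ifitm3, was called and by DESeq2 2. With 1 library left out the limma count was 14 without JFRm59 and from 1 to 3 without any other.

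Many interferon-stimulated genes share a promoter element. The windows of Isg15, Rsad2 and Ifitm3, and of the interferon-induced chemokine Cxcl10, which stands in the cytokine list, are shown as examples. They were picked among called genes whose window held a match. Irf7, Ccl3, Ccl5 and Il1b rose too, but no window with a match was found for them. The windows shown are thus no sample of the genes that rose. The sequences are RefSeq promoter windows of 300 bases, most of them upstream of a transcription start, on GRCm38.p6, 5′ to 3′ on the gene's strand. Capitals mark matches on either strand to GAAANNGAAA (the core of the interferon-stimulated response element) or to GGGANNTTCC (an NF-κB site). Cxcl10 lies at chr5:92348840-92349139, minus strand, Isg15 at chr4:156200769-156201068, minus strand, Rsad2 at chr12:26456403-26456702, minus strand and Ifitm3 at chr7:141010695-141010994, minus strand.
Cxcl10: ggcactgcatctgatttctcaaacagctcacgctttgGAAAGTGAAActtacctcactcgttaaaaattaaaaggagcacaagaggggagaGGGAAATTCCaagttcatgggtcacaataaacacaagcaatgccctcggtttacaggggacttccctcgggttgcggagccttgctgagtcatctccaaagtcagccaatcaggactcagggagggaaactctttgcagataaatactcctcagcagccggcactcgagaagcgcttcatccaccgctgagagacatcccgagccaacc
Isg15: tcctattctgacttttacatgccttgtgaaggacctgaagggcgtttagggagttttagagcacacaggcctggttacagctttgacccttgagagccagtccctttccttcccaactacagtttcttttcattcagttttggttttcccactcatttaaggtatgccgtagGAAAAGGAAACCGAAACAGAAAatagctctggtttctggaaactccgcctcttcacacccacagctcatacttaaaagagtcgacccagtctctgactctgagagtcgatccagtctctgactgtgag
Rsad2: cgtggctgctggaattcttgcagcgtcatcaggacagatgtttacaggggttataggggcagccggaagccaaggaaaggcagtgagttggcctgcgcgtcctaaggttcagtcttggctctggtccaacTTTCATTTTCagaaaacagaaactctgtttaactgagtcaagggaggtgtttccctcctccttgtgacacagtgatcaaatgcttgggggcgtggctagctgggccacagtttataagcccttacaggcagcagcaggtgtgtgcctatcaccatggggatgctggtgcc
Ifitm3: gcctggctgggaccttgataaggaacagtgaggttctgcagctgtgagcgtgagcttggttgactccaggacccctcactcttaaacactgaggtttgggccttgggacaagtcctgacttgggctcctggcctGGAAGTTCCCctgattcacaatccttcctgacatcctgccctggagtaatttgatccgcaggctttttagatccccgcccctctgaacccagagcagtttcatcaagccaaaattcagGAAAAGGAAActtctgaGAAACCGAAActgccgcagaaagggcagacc
Cxcl10 holds 1 match to each motif, Isg15 3 overlapping matches to the first, Rsad2 1 to the first, and Ifitm3 2 to the first and 1 to the second. Of the 27 interferon-stimulated genes tested, 23 matched a window and 12 of these (52.2%) held GAAANNGAAA, beside 4.08% of the 4654 tested genes with a window and 3.99% of all 27025 genes with one. Among the genes called higher the share was 7.69% (14 of 182 with a window) and among those called lower 3.85% (3 of 78). For GGGANNTTCC the shares were 33.3% of 15 cytokines and chemokines, 8.33% of 24 NF-κB genes, 4.40% of the genes called higher and 1.28% of those called lower, beside 2.21% of the tested genes. A match is a run of letters in a window and not a measured site, and the 3′ tags of these libraries do not measure promoter use.

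JFRm59 stood apart from the other neutrophil-poor libraries in its inflammatory genes and in part of its neutrophil genes. Its value reached at least the lowest neutrophil-rich value for 24 of 27 interferon-stimulated genes, 23 of 31 NF-κB genes and 13 of 18 cytokines and chemokines. The corresponding counts were 6, 3 and 7 in JFRm78, 3, 2 and 4 in JFRm77, and 7, 6 and 2 in JFRm76. Among the receptors and cytosolic genes of neutrophils the counts were 11 of 24 for JFRm59 and 1, 2 and 0 for the others. Among the granule genes they were 4 of 7 for JFRm59 and 2, 1 and 2. Summed over the granule list, JFRm59 held 1574 normalized counts, inside the neutrophil-rich range of 1338 to 3110, and the others held 188 to 335. Summed over the listed interferon-stimulated genes, JFRm59 held 4029 normalized counts, more than any neutrophil-rich library (1803 to 3773), while JFRm78, JFRm77 and JFRm76 held 402 to 669. Across all 6107 genes, 4644 (76.0%) reached the lowest neutrophil-rich value in JFRm59, 4532 in JFRm78, 4261 in JFRm77 and 4402 in JFRm76. In JFRm59 the share was 88.9% of the interferon-stimulated genes, 74.2% of the NF-κB genes and 72.2% of the cytokines and chemokines. The score of JFRm59 was the highest of the neutrophil-poor arm, and these counts were made after the values were seen.

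Apart from the lists, the 12 genes with the largest increase among called, non-overlapping genes with a mean of at least 30 were AA467197, Rnd1, Nrxn3, Tagap, Bcl2a1b, Cdk5r1, H2-Q10, G0s2, Upp1, Adora2a, Emcn and Cd14. The minimum is over both arms. All of these genes but AA467197 had a neutrophil-poor mean below 30 and reached the minimum through the neutrophil-rich arm. The lowest neutrophil-poor means were those of H2-Q10, Emcn, Nrxn3, Cdk5r1, Rnd1 and Upp1. They were 4.69, 4.47, 5.98, 6.78, 7.69 and 8.80 normalized counts, so the rank of the fold changes is uncertain. AA467197 (ENSMUSG00000033213, chromosome 2, 122636986 to 122641191, plus strand), whose annotation also holds the microRNA gene Mir147 on the same strand, measured 781, 814, 462 and 327 in the neutrophil-rich arm and 209, 28.5, 6.76 and 10.1 in the neutrophil-poor arm. Among the neutrophil-poor libraries JFRm59 was the highest and both males the lowest (4.37, SE 0.73, adjusted p = 0.00559). Rnd1 (ENSMUSG00000054855, chromosome 15, 98663421 to 98677461, minus strand), a regulator of the actin cytoskeleton, measured 127, 220.3, 107 and 85.5 against 19.9, 2.78, 2.25 and 5.80, so that the lowest neutrophil-rich library was more than 4 times the highest neutrophil-poor one (4.30, SE 0.57, adjusted p = 0.00166). The adenosine receptor gene Adora2a, whose product dampens neutrophil and macrophage activation, measured 221, 156, 175 and 142 against 32.1, 5.56, 6.76 and 34.8 (3.46, SE 0.53, adjusted p = 0.0031).

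Tagap, a signalling protein of leukocytes, measured 54.8, 153, 152 and 56.3 against 29.5, 6.96, 0 and 8.69 (3.74, SE 0.80, adjusted p = 0.0146). Bcl2a1b, an anti-apoptotic BCL2 relative of granulocytes, measured 161, 189.9, 212 and 80.5 against 15.6, 23.7, 3.38 and 10.1 (3.68, SE 0.51, adjusted p = 0.00166). It has near-identical copies, and the same reads may be counted on more than 1 of them, which holds for the class Ib MHC gene H2-Q10 too (log2 fold change 3.56). Upp1, uridine phosphorylase, rose by 3.52 (adjusted p = 0.0203) and Cdk5r1, the activator of CDK5, by 3.63 (adjusted p = 0.0112). Nrxn3 and Emcn are known from synapses and from endothelium. Nrxn3 measured 44.2, 103, 139 and 28.2 against 9.53, 2.78, 0 and 11.6, and the highest value of Emcn was 108 normalized counts, in JFRm70 (log2 fold changes 3.81 and 3.36). The Nrxn3 locus spans 88722876 to 90334935 on chromosome 12 and holds small genes on both strands, so the reads counted there are uncertain.

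Most AM genes had lower values in the neutrophil-rich arm, to different degrees. Of 30 listed genes 28 were tested, 24 had a negative log2 fold change with a median of −0.73, 3 fell and none rose. At an unadjusted p under 0.05, 12 of the 28 were lower and none higher, beside 9.58% and 13.7% of all genes tested. The summed level of the list was 3919 to 6600 normalized counts in the neutrophil-rich arm and 6909 to 7823 in the neutrophil-poor arm. Mrc1 (ENSMUSG00000026712, chromosome 2, 14229392 to 14332057, plus strand), the mannose receptor, measured 262, 189, 192 and 435 against 939, 556, 807 and 791, and the neutrophil-poor mean was 2.87 times the neutrophil-rich one (log2 fold change −1.58, SE 0.31, adjusted p = 0.0109). Pparg (ENSMUSG00000000440, chromosome 6, 115360951 to 115490399, plus strand), the nuclear receptor that AMs need for their identity and lipid handling, was low throughout at 7.95, 13.02, 1.52 and 11.1 against 29.5, 26.4, 82.3 and 42.02 and did not overlap (−2.40, SE 0.63, adjusted p = 0.038). Cd200r4, a receptor of the CD200 receptor family, measured 37.1, 23.9, 13.7 and 23.1 against 89.3, 66.8, 135 and 189.8 (−2.22, SE 0.42, adjusted p = 0.00921).

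Other defining AM genes did not pass the test. Marco (ENSMUSG00000026390, chromosome 1, 120474538 to 120505024, minus strand), the scavenger receptor for bacteria, measured 749, 575, 854 and 835 against 1029.6, 844, 749.6 and 914, with overlapping arms (−0.24, SE 0.26, adjusted p = 0.607). Car4 had a log2 fold change of 0.04 (SE 0.31), a sign that turned under edgeR, DESeq2 and equal totals, and Krt79 of 0.19 (SE 0.29). Chil3, the chitinase-like protein Ym1, measured 1254 ± 391 normalized counts in the neutrophil-rich arm and 1912 ± 478 in the neutrophil-poor arm (SD, n = 4 each; −0.62, SE 0.30, adjusted p = 0.221). Ear2 (−0.70, adjusted p = 0.341) and Fabp1 (−2.26, adjusted p = 0.101) were lower without passing. By edgeR 2 of the 28 were called lower and by DESeq2 5. With 1 library left out limma called 7 without JFRm59, 5 without JFRm60 and 2 without any other. Ear2 has near-identical copies that may share its reads.

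Of 21 lysosomal genes tested, 1 rose and 2 fell, beside 3.95% and 1.56% of all genes, with a median log2 fold change of −0.34. Cd63, a tetraspanin of lysosomes and of neutrophil azurophil granules, measured 4779, 7415, 8328 and 3909 in the neutrophil-rich arm and 932, 2476, 763 and 888 in the neutrophil-poor arm (2.38, SE 0.38, adjusted p = 0.00402). Ctss (ENSMUSG00000038642, chromosome 3, 95526786 to 95556403, plus strand), the protease that trims the MHC class II chaperone in macrophages, went down, from 2148, 2073, 2138 and 2226 in the neutrophil-poor libraries to 1053, 889.9, 786 and 1523 in the neutrophil-rich ones (−1.06, SE 0.28, adjusted p = 0.037). The arms did not overlap for Ctss, and its 4 neutrophil-poor values lay close together. Gpnmb, a glycoprotein of lipid-laden macrophages, measured 210.3, 231, 203 and 418 against 576, 507, 739 and 548 (−1.21, SE 0.29, adjusted p = 0.0277). Among 23 lipid genes tested 2 rose and none fell, beside the same shares of all genes. Of the 23, 18 had a negative log2 fold change, with a median of −0.38. Those that rose were Dgat2, the triglyceride-forming acyltransferase (2.06, adjusted p = 0.0139), and Srebf2, the regulator of cholesterol synthesis (1.46, adjusted p = 0.0109). Srebf2 measured 231, 204, 235 and 192 against 62.4, 106, 71.02 and 75.3, without overlap. By edgeR neither Ctss nor Gpnmb was called, and both lost their call without JFRm67, JFRm70, JFRm71, JFRm76 or JFRm77 (Ctss without JFRm78 too). Dgat2 and Srebf2 passed by edgeR too.

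**Figure D3:**
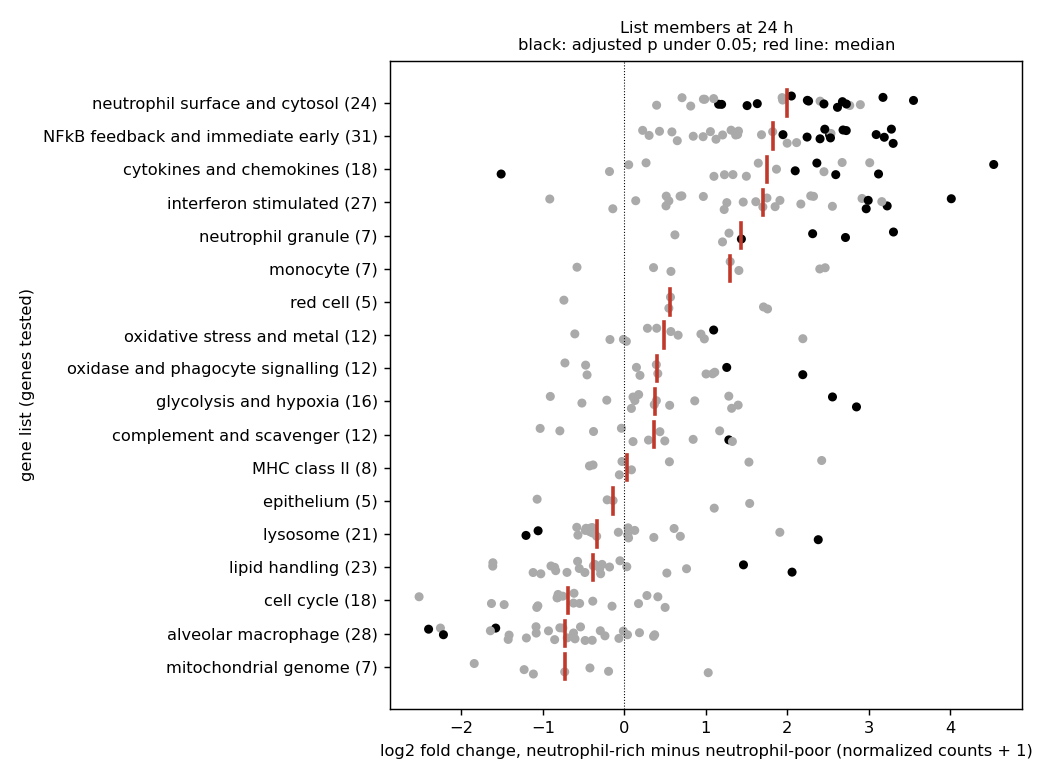
Log2 fold change (neutrophil-rich minus neutrophil-poor, normalized counts + 1) of the tested members of 18 gene lists with at least 5 tested members, black for adjusted p under 0.05, grey otherwise, with the list median as a red line. The medians run from 2.00 for neutrophil surface and cytosol to −0.73 for the AM and the mitochondrial lists.

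The 12 genes with the largest decrease under the same rule were Trim47, Emc2, C530008M17Rik, Snd1, Vps37a, Ddhd1, Cd200r4, Calr, B4galnt1, Nrp1, Ndufa12 and Leprot. Here some genes reached the minimum mean of 30 through the neutrophil-poor arm. Among these were Emc2, Nrp1, B4galnt1 and Cd200r4. The last 3 had neutrophil-rich means of 16.8, 21.8 and 24.5 normalized counts. The rank of such fold changes is uncertain. Calr (ENSMUSG00000003814, chromosome 8, 84841850 to 84846934, minus strand), calreticulin, a calcium-binding chaperone of the endoplasmic reticulum, was by far the most abundant of them. It measured 1195, 696, 515 and 1096 in the neutrophil-rich libraries and 3256, 2003, 6622 and 3909 in the neutrophil-poor ones, with the highest value in the male JFRm77 (−2.12, SE 0.37, adjusted p = 0.00762). Emc2 (ENSMUSG00000022337, chromosome 15, 43477229 to 43527763, plus strand), a subunit of the complex that inserts proteins into the membrane of the endoplasmic reticulum, measured 9.72, 15.2, 19.8 and 9.05 against 80.6, 86.95, 109 and 181 (−2.99, SE 0.42, adjusted p = 0.00166). Leprot, a regulator of leptin receptor traffic, measured 44.2, 81.4, 67.02 and 31.2 against 252, 164, 328 and 171 (−2.05, SE 0.36, adjusted p = 0.00803).

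Nrp1, neuropilin 1, fell from 59.5 ± 16.7 to 16.8 ± 12.7 normalized counts (SD, n = 4 each; −2.08, SE 0.56, adjusted p = 0.0412). Ndufa12, a subunit of respiratory complex I, fell from 135 ± 69.2 to 31.4 ± 14.5 (−2.05, SE 0.47, adjusted p = 0.0205). B4galnt1, a ganglioside synthase, measured 12.4, 17.4, 18.3 and 39.2 against 62.4, 66.8, 126 and 123 (−2.12, SE 0.43, adjusted p = 0.0123). Snd1 (−2.39), the ESCRT subunit Vps37a (−2.36), the phospholipase Ddhd1 (−2.24), Trim47 (−3.21) and C530008M17Rik (−2.44), a predicted gene whose function is uncertain, had adjusted p-values from 0.0189 to 0.0423. The loci of Trim47 and Vps37a overlap those of Trim65 and of Cnot7 and Mtmr7. Snd1 and Vps37a were lowest in JFRm60, at 3.02 normalized counts each, below the range of the other neutrophil-rich libraries.

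Oxidase and phagocyte signalling genes gave 2 increases in 12 tested, beside 3.95% of all genes tested, and a median log2 fold change of 0.40. Both were cytosolic subunits of the NADPH oxidase. Ncf1 measured 767, 619, 679 and 898 against 418, 321, 283 and 232 (1.26, SE 0.27, adjusted p = 0.0152) and Ncf4 78.7, 86.8, 114 and 81.5 against 33.8, 13.9, 18.04 and 14.5 (2.19, SE 0.39, adjusted p = 0.00804), and neither overlapped. The membrane subunit Cybb had −0.73 (SE 0.32, adjusted p = 0.186). Of 16 glycolysis and hypoxia genes 2 rose, beside the same share of all genes. Of the 16, 13 had a positive log2 fold change, with a median of 0.38. At an unadjusted p under 0.05, 4 were higher, beside 13.7% of all genes tested. Egln3, a prolyl hydroxylase that hypoxia induces, measured 76.9, 99.8, 76.2 and 69.4 against 21.7, 9.04, 18.04 and 7.24 (2.56, SE 0.44, adjusted p = 0.00623), and Pfkfb3, which makes the activator of phosphofructokinase, measured 167, 170.4, 235 and 139 against 142, 9.74, 22.5 and 8.69 (2.85, SE 0.64, adjusted p = 0.0187). The glycolytic enzymes Aldoa (−0.22, adjusted p = 0.673), Eno1 (0.13, adjusted p = 0.866) and Pkm (0.09, adjusted p = 0.935), picked after their values were seen, did not pass. Both oxidase genes and Egln3 were called by edgeR, and Pfkfb3 was not.

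Of 12 oxidative-stress and metal genes tested, 9 had a positive log2 fold change, with a median of 0.48. At an unadjusted p under 0.05, 5 were higher, beside 13.7% of all genes tested. Fth1, the ferritin heavy chain that stores iron, was the only one called by limma. It rose from 3763, 2033, 2087 and 2149 in the neutrophil-poor libraries to 5627, 5596, 5449.7 and 4182 in the neutrophil-rich ones (1.10, SE 0.30, adjusted p = 0.0447). The ferritin light chain Ftl1 did not pass (0.98, adjusted p = 0.0643). Among 12 complement and scavenger genes tested 1 rose, beside 3.95% of all genes tested. It was C3, the central complement protein, at 342, 538, 479.8 and 351 against 289, 101, 186 and 161 (1.28, SE 0.33, adjusted p = 0.0352). None of 8 MHC class II genes passed, and their median log2 fold change was 0.03 by limma and −0.07 under equal totals. Cd74, the class II chaperone, had −0.03 (SE 0.46, of the other sign by edgeR and DESeq2) and H2-DMb1 −0.06 (SE 0.44). By edgeR neither Fth1 nor C3 was called, Fth1 was not called under equal totals, and both lost their call when any library other than JFRm59 or JFRm60 was left out.

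Proliferation genes had a median log2 fold change of −0.69 over 18 tested members of 32, and none passed by limma, edgeR or DESeq2. At an unadjusted p under 0.05, 3 of the 18 were lower, beside 9.58% of all genes tested. Mcm7, a subunit of the replicative helicase, measured 135, 105, 155 and 180.0 against 131, 138, 498 and 427, so that its high values came from the neutrophil-poor males (adjusted p = 0.254). Top2a, topoisomerase II, had −0.82 (SE 0.34, adjusted p = 0.159). Of 7 listed mitochondrially encoded genes tested 3 were lower and 1 higher at an unadjusted p under 0.05, beside 9.58% and 13.7% of all genes tested. None of the 7 passed by limma or edgeR, and DESeq2 called 1 higher. Among them mt-Nd2 ranged widely within the neutrophil-rich arm, at 1220.4, 604, 422 and 6666, against 2122, 4638, 8125 and 4318 (−1.84, adjusted p = 0.0987), and mt-Nd4 had −1.12 (adjusted p = 0.118).

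Markers of further cell types were examined beside these results. Of 7 tested monocyte genes of 15 none passed. Of these 7, 6 had a positive log2 fold change, with a median of 1.30. At an unadjusted p under 0.05, 2 were higher, beside 13.7% of all genes tested. The summed monocyte list was 381 to 465 normalized counts in the neutrophil-rich arm and 339 to 452 in the neutrophil-poor arm. The 2 most abundant tested members, Fn1 (−0.58) and Csf1r (0.36), had adjusted p = 0.232 and 0.545. Lck, a kinase of T cells, was the only lymphocyte gene of 18 with a mean of at least 10, and it rose, at 117, 105, 129 and 83.5 against 39.9, 45.2, 46.2 and 10.1 (1.78, SE 0.45, adjusted p = 0.0336), but it was not called by edgeR. The T-cell genes Cd3g, Trbc1 and Trbc2 averaged below 2 normalized counts, Cd3d reached 22.1 in JFRm60 and Cd3e was at 0 in all 8 libraries. Summed over the 18 lymphocyte genes, of which 4 were at 0 throughout, the level was 139 to 172 in the neutrophil-rich arm and 27.5 to 60.9 in the neutrophil-poor arm. Lck made up the larger part of that sum in 6 of the 8 libraries, and without it the list held 22.1 to 88.5 against 7.0 to 20.8 normalized counts. Epithelial genes summed to 67.3 to 264 against 106 to 158 normalized counts, and none of 5 tested passed, with Bpifa1 at −0.14 (SE 0.49) and the club-cell protein Scgb1a1 at −0.21 (SE 1.08). Siglece was the single gene tested of the eosinophil and mast cell list (0.97, adjusted p = 0.257), and 7 of its 10 genes, among them Prg2 and Epx, were at 0 in all 8 libraries.

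Red cell transcript varied from mouse to mouse in both arms. The summed list was 366 to 1809 normalized counts in the neutrophil-rich arm and 228 to 1743 in the neutrophil-poor arm, and none of 5 tested genes passed. Hbb-bs measured 728, 906, 1083 and 131 against 54.6, 94.6, 221 and 701 (adjusted p = 0.154) and Hba-a1 218, 118, 206 and 64.4 against 95.3, 101, 602 and 467 (adjusted p = 0.455). Both are globin genes with near copies that may share reads. The part of red cell, monocyte or lymphocyte transcript in the differences above was not tested.

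Sex was balanced between the arms. Males had a score of 10.28 ± 1.70 and females of 11.30 ± 1.33 (SD, n = 4 each). An exact permutation test of the score between the sexes gave p = 0.429. With 4 against 4 libraries its smallest possible p is 0.0286. Xist, the RNA of the inactive X chromosome, measured 784, 30.4, 1.52 and 682 against 705, 934, 0 and 0 and Ddx3y, from the Y chromosome, 0, 47.7, 74.6 and 0 against 0, 0, 31.6 and 8.69. JFRm67, labelled male, held both Ddx3y and 30.4 normalized counts of Xist, and every other library held the gene of its labelled sex alone or, for JFRm70, 1.52 of Xist. Neither gene passed between the arms (adjusted p = 0.703 and 0.777).

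Within each sex, 2 neutrophil-rich were set against 2 neutrophil-poor libraries, with no test. All 241 genes called higher and all 95 called lower had the same sign in males and in females, beside 3953 of all 6107 genes tested. The calls came from the same 8 libraries, which largely fixes that agreement. The difference was larger in males for 212 of the 241 and for 74 of the 95, and the males' arms were also farther apart in score. The median of the interferon-stimulated list was 2.32 in males and 0.90 in females, that of the NF-κB list 2.59 and 1.01, and that of the AM list −1.21 and −0.39. Cxcr2 differed by 2.73 in males and 1.79 in females, Adora2a by 3.32 and 3.59, and Emc2 by −2.95 and −3.03. For mt-Nd2 the values were −3.55 and −0.14, and for Mcm7 −1.84 and 0.22. The difference between the sexes in these values was not tested.

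**Figure D4:**
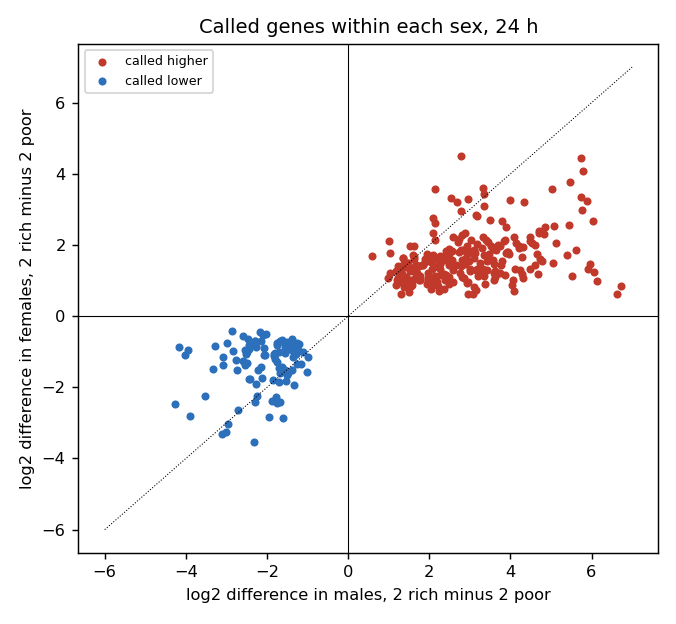
Log2 difference between neutrophil-rich and neutrophil-poor libraries in males (horizontal) and in females (vertical), 2 against 2 libraries each, for the genes called higher (red, 241) and lower (blue, 95). All points lie in the lower left or upper right quadrant, and 212 of 241 red points lie below the dotted line of equal differences.

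The 8 libraries of the same line taken at 6 h share no mouse with the 24 h arms and were not used to choose them. There the score fell into 2 groups, JFRm41, JFRm40, JFRm39 and JFRm63 from 11.12 to 13.22 (3 males and 1 female) and JFRm65, JFRm64, JFRm42 and JFRm46 from 4.64 to 7.02 (1 male and 3 females). Since the libraries form 2 clusters of 4, no correlation of list levels with the score is given. Each gene was fitted on the 6 h score as a slope in log2 units per unit of the score. Of 6722 genes tested, 178 had a positive slope at an adjusted p under 0.05 (2.65%) and 3 a negative one (0.0446%), and 43.4% of slopes were positive at any p.

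Of the 241 genes called higher at 24 h, 214 were tested at 6 h, 202 of these (94.4%) had a positive slope and 84 (39.3%) passed, and none passed with a negative slope. Of the 95 called lower, 94 were tested, 74 (78.7%) had a negative slope and none passed in either direction. Over all 5613 genes tested at both times, 44.3% of slopes were positive and 3.14% (176) passed with a positive slope. At 6 h sex was uneven between the high-score and the low-score libraries, and sex against the score was not tested there. With sex as a covariate 92 genes passed with a positive slope, 56 of them among those called higher at 24 h. Without JFRm41, the count at 6 h was 114, of which 59 were among those called higher at 24 h.

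Il1r2 at 6 h measured 517, 346, 1392 and 569.6 in JFRm41, JFRm40, JFRm39 and JFRm63 and 35.9, 21.04, 10.6 and 1.25 in JFRm65, JFRm64, JFRm42 and JFRm46. Its slope was 0.91 per unit of the score (SE 0.09, adjusted p = 1.42e-06). Cxcr2 measured 454, 265, 285 and 215 in the first group and 33.2, 16.7, 2.37 and 4.18 in the others, a slope of 0.78 per unit of the score (SE 0.09, adjusted p = 1.35e-05). Neither gene overlapped between the 2 groups of mice. Ifitm3 measured 211, 226, 649.8 and 79.6 against 6.65, 0, 5.32 and 0, a slope of 1.02 per unit of the score (SE 0.12, adjusted p = 1.46e-05). Retnlg and Mmp8, which did not pass at 24 h, had slopes of 1.26 per unit of the score (SE 0.11, adjusted p = 1.91e-07) and 0.56 per unit of the score (SE 0.06, adjusted p = 1.46e-05). Cxcl2 passed at 6 h as well, with 0.48 per unit of the score (SE 0.08, adjusted p = 4.23e-04).

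By list, all 7 granule genes and 23 of 24 surface and cytosol genes tested at 6 h had a positive slope, and 6 and 18 passed. Of all genes tested at both times, 44.3% had a positive slope and 3.14% passed with one. Of the NF-κB genes 31 of 31 were positive and 17 passed, and of 22 interferon-stimulated genes 20 were positive and 7 passed. Of 6 monocyte genes 4 were positive and 2 passed. Isg15 measured 332, 268, 504 and 193 against 53.2, 159, 50.9 and 28, with a slope of 0.39 per unit of the score (SE 0.06, adjusted p = 5.64e-04). Of 28 AM genes 25 had a negative slope, beside 55.7% of all genes tested at both times, none passed, and the median slope was −0.08. Mrc1, which fell at 24 h, measured 772, 963, 308 and 781 in the high-score and 715, 553, 812 and 1019 in the low-score mice at 6 h, a slope of −0.04 per unit of the score (SE 0.05, adjusted p = 0.857). Calr had −0.10 per unit of the score (SE 0.07, adjusted p = 0.634) and Pparg −0.44 per unit of the score (SE 0.15, adjusted p = 0.203). All 5 red cell genes passed with a positive slope at 6 h, where Hba-a1 had 0.63 per unit of the score (SE 0.13, adjusted p = 0.00507), and none passed at 24 h. The part of red cell transcript in the 6 h slopes was not tested.

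**Figure D5:**
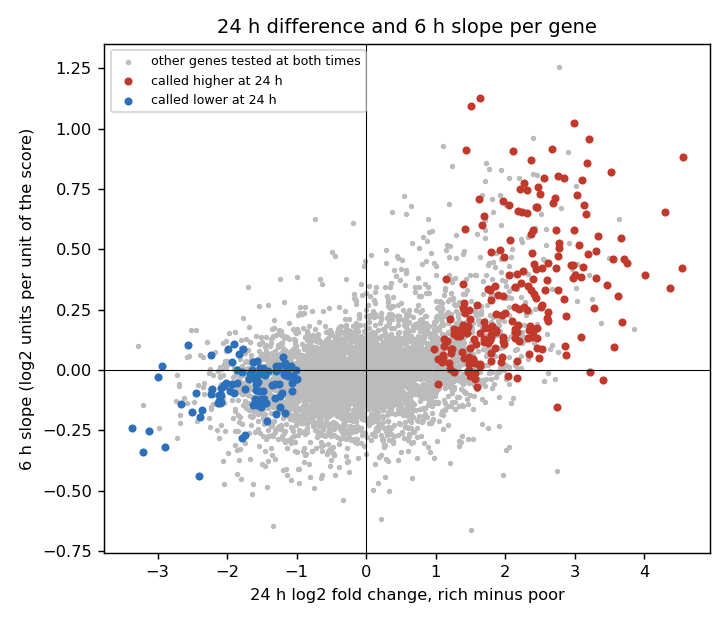
Log2 fold change between the arms at 24 h (horizontal) and slope on the score at 6 h (vertical) for the 5613 genes tested at both times, red for genes called higher and blue for genes called lower at 24 h. Of the 214 red genes 202 lie above 0, and of the 94 blue genes 74 lie below 0, close to the axis.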

How the data were processed

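RNA of lavage cell pellets was made into 3′ tag libraries (QuantSeq FWD), sequenced, demultiplexed with CASAVA 1.8 and processed on the Bluebee platform. The sources used here name neither aligner nor counter. The deposited signal values are normalized counts, for which the authors scaled each library's gene reads by 1 size factor. The file headers name GRCm38. In all 8 libraries of the arms 100% of values were whole multiples of 1 step per library (tolerance 0.02 reads), which gave the reads behind them. The step of JFRm60 was near 1, at 1.0058.

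Genes with a mean of at least 10 normalized counts over the 8 libraries were tested on log2 (normalized count + 1) with limma 3.58.1 (trend, R 4.3.3), arm against arm, with Benjamini-Hochberg adjustment over all 6107 genes. The 6 h libraries were fitted on their own S100a8 and S100a9 score. edgeR 4.0.16 and DESeq2 1.42.0 on the recovered reads, equal library totals, other pseudocounts and minimum means, sex as a covariate, the score as a continuous covariate, 3 against 3 libraries and the omission of each library were alternatives. Values within each sex, and the count at 6 h of the genes called at 24 h, were added after seeing the data. Replicates are separate mice. The limma and edgeR fits were also run on simulated counts with fixed arms, which does not cover the choice of arms by a readout.

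Members, gene lists and tests were chosen with earlier results of these data known. Named were the 12 largest called, non-overlapping changes in each direction with a mean of at least 30, up to 4 called genes per list (the 2 most abundant where none was called) and 18 set neutrophil, macrophage, red cell and sex-linked genes. Nfkbia, Cybb, Ftl1, Aldoa, Eno1 and Pkm were added after their values were seen. Gene coordinates come from the GENCODE annotation of GRCm38. All 82 named genes matched it, and 34 of them overlap another annotated gene, so some reads may belong to a neighbour. Of the 58 samples 11 were left without a group because their labels do not settle it, JFRm58 and JFRm74 of the 24 h table among them. The 18 h samples and the tables of other lines were not used here, and neither were the authors' own comparison columns, which hold fold changes and p-values.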

Additional observations from a re-analysis of the deposited data

Results flagged for a closer look

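In each arm of 4 libraries, the most extreme library of a named gene was set against the others by Dixon's criterion on the log2 scale. Of 164 such groups (82 genes, 2 arms) 11 had a library far from the rest, and chance alone puts about 1 in 20 groups past this limit.

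JFRm60 was the library apart in 4 neutrophil-rich groups. It held 307 normalized counts of Hp, where the other neutrophil-rich libraries held 832 to 1016, and 4180 of Fth1 where they held 5450 to 5627. It held 3.02 of Vps37a beside 15.9 to 18.3, and 3.02 of Snd1 beside 30.5 to 33.6. For Bpifa1, JFRm67 was the one apart, with 10.9 beside 34.5 to 38.2.

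In the neutrophil-poor arm JFRm59 stood apart for 3 genes. It held 75.4 normalized counts of Chil1 beside 11.1 to 13, 3760 of Fth1 beside 2033 to 2149, and 50.3 of Siglece beside 15.8 to 17.4. JFRm78 held 2480 of Cd63 beside 763 to 932, and 278 of Fn1 beside 162 to 177. JFRm76 held 10.1 of Lck where the other 3 held 39.9 to 46.2.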

How the results depend on the processing

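limma called 336 genes between the arms (241 higher, 95 lower). The count was 178 by edgeR (142 and 36), 562 by DESeq2 (373 and 189) and 1045 with the 3 highest against the 3 lowest libraries (704 and 341). It ran from 106 to 667 with 1 library left out (83 to 471 higher, 11 to 196 lower), lowest without JFRm67 and highest without JFRm59. The other settings gave 288 to 449. Of the 57 named genes called by limma, edgeR called 29. The called genes kept their sign in every setting that tested them, and the cause of the spread in counts was not tested. At 6 h, the 178 genes with a positive slope became 92 with sex as a covariate and 114 to 185 with 1 library left out. The genes called higher at 24 h that passed at 6 h (84) became 56 to 96.

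Signs turned for 8 named genes, none of them called. Car4 had −0.015 by edgeR, −0.0103 by DESeq2, −0.0609 under equal totals and −0.114 to 0.277 with 1 library left out. Cd74 had 0.219 by edgeR and by DESeq2, 0.000842 on the continuous score and −0.308 to 0.528 with 1 library left out. Xist had −0.15 by edgeR, −0.144 by DESeq2 and −0.109 to 3.18, and Ddx3y had −0.293 on the continuous score and −0.206 to 1.87. Krt79 had −0.0471 with 3 against 3. With 1 library left out, H2-DMb1 ran from −0.328 to 0.282, Bpifa1 from −0.305 to 0.271 and Scgb1a1 from −1.64 to 0.486. No paired analysis was possible because the arms were formed by a score and share no numbered mice. At 381629 to 762007 reads per library, genes below the minimum mean, such as most lymphocyte markers, are not measured well enough for a difference between arms to be detected.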

Other observations

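Calr was not the only chaperone of the endoplasmic reticulum with lower values in the neutrophil-rich arm. In a set of 14 folding genes picked after Calr had been seen, 13 had a negative log2 fold change. The median was −0.77, beside −0.0029 over all genes tested. Of the 14, 3 were called lower by limma, beside 1.56% of all genes tested. At an unadjusted p under 0.05, 5 were lower, beside 9.58% of all genes tested. Besides Calr the called genes were Hsp90b1, the chaperone GRP94, at 361, 318, 201 and 311 against 1019, 382, 666 and 639 normalized counts (−1.13, SE 0.32, adjusted p just under the threshold of 0.05), and Sdf2l1, a stress-inducible folding factor, at 26.5, 21.7, 12.2 and 17.1 against 32.1, 64, 134 and 72.4 (−1.79, SE 0.47, adjusted p = 0.037). Hspa5, the chaperone BiP, measured 2646, 2207, 2446 and 2150.5 against 2577, 2444, 3505 and 2226 and did not pass (−0.17, SE 0.27, adjusted p = 0.739). The set has no test of its own, since it was chosen on these values.

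The remaining columns of the 24 h table, JFRm58 and JFRm74, have conflicting labels (JFRm74 is titled as a 6 h SP-A knockout) and scores of 12.16 and 12.41. JFRm58 held 415 normalized counts of Isg15, 165 of Cxcl10 and 498 of Rsad2, and JFRm74 held 3625, 1633 and 3044. For Il1r2 the values were 266 and 494, for Cxcr2 215 and 196, and for AA467197 304.6 and 2377.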
